A study of Homo sapiens with 4 samples.

Results

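The prostaglandin genes described here are 10 genes for synthesis, inactivation and signalling of prostaglandins, chosen by name from the 51103 genes of the deposited tables: PLA2G4A, PTGS1, PTGS2, PTGES, PTGES2, PTGES3, PTGER2, PTGER4, HPGD and PTGR1. Each name had exactly 1 row. They were compared between 2 libraries of the cell line labelled SCC-15, a human line described as oral squamous cell carcinoma, with lentiviral overexpression of REEP6 (called REEP6 here) and 2 libraries of the same line labelled NC, the negative control. Per the labels, both were established lines, seeded in plates and harvested at 48 h for polyadenylated RNA. The labels do not describe what the NC cells received, whether a line is 1 clone, or whether the libraries of a group came from separate cultures, so a p-value here covers only the spread among these libraries, which may be technical. By its title, the study asked which genes and signalling pathways REEP6, a membrane protein of the endoplasmic reticulum, regulates.

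Prostaglandins are signalling lipids made from arachidonic acid. Cytosolic phospholipase A2 frees arachidonic acid from membranes, a cyclooxygenase (PTGS1, the constitutive form, or PTGS2, the inducible one) converts it to prostaglandin H2, and terminal synthases turn that into prostaglandin E2. Prostaglandin E2 acts on EP receptors on the cell surface, of which those encoded by PTGER2 and PTGER4 raise cyclic AMP, and is taken out of use by 15-hydroxyprostaglandin dehydrogenase (HPGD) and then by reductases such as PTGR1. In squamous carcinomas PTGS2 is known as a gene that is often raised and HPGD as one that is often lost.

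With REEP6, transcripts of the inducible route were lower from the phospholipase to the terminal synthase. Neither enzymes nor prostaglandins were measured. PTGS2 was 2.72-fold lower, PTGES 1.73-fold lower and PLA2G4A 1.44-fold lower in REEP6 than in NC libraries. HPGD, on the inactivation side, was 4.01-fold lower, while PTGES3 was 1.32-fold higher. PTGS1 and the receptor gene PTGER2 were at or near the detection limit in all libraries. Of the 10 genes 7 were above the filter for testing, which asked for 1 FPKM (fragments per kilobase of gene, scaled to library size) in 2 or more libraries, and of these 4 fell, 1 rose and 2 did not pass. Among all 13077 genes tested the share that fell was 14.2% and the share that rose was 10.9%. A call means a Benjamini-Hochberg adjusted p below 0.05 in edgeR's quasi-likelihood test over all genes tested. HPGD was above the filter in the NC libraries only, so a member that passed this way had to differ. The median log2 fold change of the 7 tested genes, HPGD included, was -0.53, against -0.01 over all genes tested. The genes were chosen with earlier results of these data known. Where the text below says that the groups did not overlap, the share of all tested genes without overlap was 28.2% with REEP6 higher and 35.3% with REEP6 lower. In these bulk samples fewer expressing cells and less RNA per cell cannot be told apart.

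The DNA just upstream of the genes that fell, and of the one that rose, is shown because they moved in opposite directions. Each line gives 250 bases before the RefSeq start and the 50 that follow it (GRCh38.p14), read 5′ to 3′ on the gene's strand. All 10 genes had an entry. For HPGD the first of 2 listed windows is given. Capitals mark matches to any of 7 short motifs searched on both strands.
PTGS2 (chr1:186680374-186680673, minus strand): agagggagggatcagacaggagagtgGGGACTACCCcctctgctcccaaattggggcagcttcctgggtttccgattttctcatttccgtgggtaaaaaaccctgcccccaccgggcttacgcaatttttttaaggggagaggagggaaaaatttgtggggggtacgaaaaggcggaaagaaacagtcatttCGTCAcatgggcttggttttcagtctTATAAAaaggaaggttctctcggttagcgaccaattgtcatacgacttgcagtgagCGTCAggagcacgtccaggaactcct
PLA2G4A (chr1:186828699-186828998, plus strand): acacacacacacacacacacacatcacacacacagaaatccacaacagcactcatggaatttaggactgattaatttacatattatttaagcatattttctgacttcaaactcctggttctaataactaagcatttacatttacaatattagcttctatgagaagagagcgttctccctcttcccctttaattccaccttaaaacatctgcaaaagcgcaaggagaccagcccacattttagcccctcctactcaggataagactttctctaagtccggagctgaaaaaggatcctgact
PTGES (chr9:129752993-129753292, minus strand): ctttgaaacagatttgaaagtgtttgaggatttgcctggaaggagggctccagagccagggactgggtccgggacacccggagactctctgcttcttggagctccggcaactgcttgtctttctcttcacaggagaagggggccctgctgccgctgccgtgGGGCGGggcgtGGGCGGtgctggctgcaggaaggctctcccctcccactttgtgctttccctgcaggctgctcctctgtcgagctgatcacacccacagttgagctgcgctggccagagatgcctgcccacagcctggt
HPGD (chr4:174522439-174522738, minus strand): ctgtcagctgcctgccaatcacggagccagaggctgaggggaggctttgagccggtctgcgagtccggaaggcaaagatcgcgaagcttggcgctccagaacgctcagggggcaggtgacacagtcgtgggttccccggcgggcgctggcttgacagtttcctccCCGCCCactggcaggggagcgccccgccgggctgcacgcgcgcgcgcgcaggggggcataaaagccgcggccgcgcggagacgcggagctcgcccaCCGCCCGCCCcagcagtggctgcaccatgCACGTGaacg
PTGES3 (chr12:56688235-56688534, minus strand): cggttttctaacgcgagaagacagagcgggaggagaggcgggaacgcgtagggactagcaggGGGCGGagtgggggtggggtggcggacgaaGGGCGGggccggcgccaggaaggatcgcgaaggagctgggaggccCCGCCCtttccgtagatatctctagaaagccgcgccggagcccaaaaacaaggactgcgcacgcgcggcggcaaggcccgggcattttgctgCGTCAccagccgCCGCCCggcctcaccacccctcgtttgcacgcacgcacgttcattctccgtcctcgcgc
The motifs were TATAAA (the TATA box), TGACGTCA (the cyclic AMP response element, which contains the next one), CGTCA (its core), CACGTG (an E-box), TGANTCA (an AP-1 site), a kappaB-type site and GGGCGG (a GC box). The PTGS2 window held TATAAA with its first base 32 bases before the start, CGTCA at 58 before it and again after it, and GGGACTACCC, a match to the kappaB-type pattern, at 224 before it. Over 34943 RefSeq windows of the same length, 11.6% held TATAAA, 24.5% CGTCA and 5.13% the kappaB-type pattern. The PTGES, HPGD and PTGES3 windows held GGGCGG or its reverse complement, as did 44.9% of all windows. HPGD also held CACGTG just after the start (7.23% of all windows) and PTGES3 held CGTCA. The second HPGD window, not shown, held CGTCA too and had a share of G and C of 44.7%, so the HPGD values depend on the window. TGACGTCA was in 1.84% and TGANTCA in 7.72% of all windows, and neither was in the 5 windows shown. None of the 7 motifs was in the PLA2G4A window, which had the lowest share of G and C of the 5, at 39.7%, against 50.7% for PTGS2, 61.7% for PTGES, 68.0% for PTGES3 and 71.0% for HPGD. These matches are letters in a window and say nothing of factor binding.

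**Figure D1:**
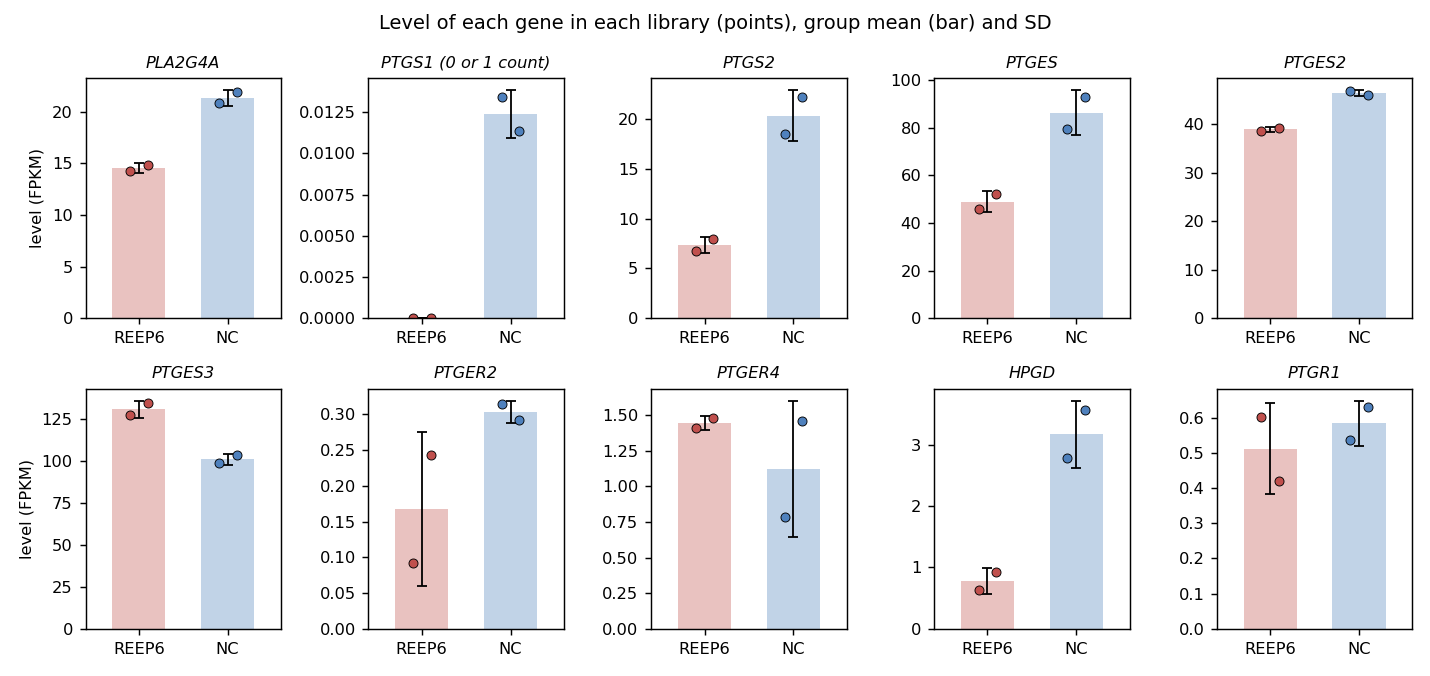
Level in FPKM of the 10 prostaglandin genes in each library. Points are libraries, bars the group mean and whiskers the SD (n = 2), REEP6 left of NC, with a separate linear axis from 0 for each gene. PLA2G4A, PTGS2, PTGES, PTGES2, PTGER2 and HPGD had both REEP6 libraries below both NC libraries, PTGES3 the reverse, PTGER4 and PTGR1 overlapped, and PTGS1 rests on 1 count in each NC library.

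REEP6 itself, the gene introduced, had 20.4 ± 0.602 FPKM in REEP6 and 11.8 ± 1.07 FPKM in NC libraries (SD, n = 2), 1.76-fold higher with REEP6 (edgeR adjusted p 0.00119). Between 12856256 and 15208629 counts were assigned to genes per library. Over genes with 10 or more counts, the chi-square between the replicates divided by its degrees of freedom was 5.68 in REEP6 and 9.58 in NC, above the value of 1 that sampling noise gives. The label of a squamous carcinoma was checked against 12 markers of squamous epithelium, of which 2 (PERP and EPCAM) reached 1 FPKM in at least 2 libraries. KRT6A and DSG3 had no count in any library, and the defining keratins KRT5 and KRT14 and the lineage factor TP63 reached at most 0.173 FPKM, so the data go against the squamous label, and the cells are called by their line name here. Of 10 fibroblast markers 4 were above the filter. LUM, COL3A1 and PDGFRB fell with REEP6, PDGFRB with a call that ended without NC replicate 1 and without REEP6 replicate 1. POSTN was called lower too, but was above the filter through the NC libraries only, which fixed its direction. PDGFRA was not tested and was higher in both REEP6 libraries, at 0.986 and 1.06 FPKM in REEP6, against 0.663 and 0.709 FPKM in NC libraries. The summed level of that list was 18.3 and 18.1 FPKM in REEP6, against 36.6 and 34.5 FPKM in NC libraries, its defining markers FAP and DCN were at or near 0, and COL1A1 was between 0.245 and 0.396 FPKM. The summed squamous list was 179 and 208 FPKM in REEP6, against 171 and 210 FPKM in NC libraries, nearly all of it PERP. None of 8 endothelial and 5 melanocyte markers was above the filter (sums of at most 0.822 FPKM), and of 10 leukocyte markers LYZ was, without a call (list sums of 2.43 and 2.07 FPKM in REEP6, against 1.92 and 3.21 FPKM in NC). The part of these shifts in the prostaglandin genes was not tested.

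PLA2G4A (ENSG00000116711, chromosome 1, 186828953 to 186988981, plus strand, GRCh38 with GENCODE release 29 as for the genes that follow) encodes the cytosolic phospholipase A2 that starts the pathway. Its level was 14.2 and 14.9 FPKM in the REEP6 libraries, against 20.8 and 21.9 FPKM in the NC libraries. The groups did not overlap, and replicates lay close together. PLA2G4A had a log2 fold change of -0.53 ± 0.0948 (SE, n = 2 per group; edgeR adjusted p 0.00431).

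PTGS2 (ENSG00000073756, chromosome 1, 186671791 to 186680427, minus strand) encodes cyclooxygenase-2, the enzyme blocked by coxibs. Counts were 473 and 556 in REEP6, against 1255 and 1777 in NC libraries, and levels were 6.78 and 7.93 FPKM in REEP6, against 18.5 and 22.2 FPKM in NC. Both REEP6 libraries lay far below both NC libraries. The log2 fold change was -1.44 ± 0.12 (SE), with a 95% interval from -1.71 to -1.17 and an edgeR adjusted p of 0.000153. By size, this was number 81 among the 1853 genes that fell. PTGS1 (ENSG00000095303, chromosome 9, 122370530 to 122395703, plus strand), the constitutive cyclooxygenase, had 0 counts in both REEP6 libraries and 1 count in each NC library. At a count of 0 the 95% Poisson interval reaches up to 3.69 counts. For scale, 3 counts would be 0.0391 and 0.0389 FPKM in REEP6 replicates 1 and 2. No difference was detectable at this depth, and PTGS2 made up nearly all cyclooxygenase transcript on the per-length FPKM scale in all 4 libraries. Such limits cover counting error only.

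PTGS2 and PLA2G4A are neighbours on chromosome 1, with their annotated starts 148.5 kb apart on opposite strands. Between them GENCODE release 29 lists 1 gene, PACERR, a long non-coding RNA that starts next to the PTGS2 promoter and was described as an activator of PTGS2 in human cells. PACERR had 9 and 14 counts in REEP6, against 32 and 53 in NC libraries. It fell by 1.76 on the log2 scale (SE 0.432, edgeR adjusted p 0.0169), and it was chosen for its position after its values were seen. All 4 libraries had few PACERR counts, and its call was lost in 3 of 16 alternatives, which include leaving out NC replicate 2 or REEP6 replicate 1.

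PTGES (ENSG00000148344, chromosome 9, 129738331 to 129753047, minus strand), the inducible microsomal prostaglandin E synthase that works with PTGS2, had 46.0 and 52.1 FPKM in REEP6, against 79.6 and 93.2 FPKM in NC libraries. The groups were well apart. PTGES differed by -0.79 ± 0.106 on the log2 scale (SE, edgeR adjusted p 0.00125).

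PTGES2 (ENSG00000148334, chromosome 9, 128120693 to 128128462, minus strand), another membrane-associated synthase that is constitutively expressed, had 38.5 and 39.2 FPKM in REEP6, against 46.8 and 46.0 FPKM in NC libraries. The groups did not overlap, but the difference missed the threshold. The log2 fold change was -0.23, with a 95% interval from -0.41 to -0.04 and an edgeR adjusted p of 0.0705. The call depended on the scaling and the filter. PTGES2 fell when scaled by library totals only (edgeR adjusted p 0.0499, with 15.4% of all genes lower), to equal FPKM sums (adjusted p 0.0161, 21.6% lower) or with a minimum of 5 FPKM (adjusted p 0.043, 19% lower).

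PTGES3 (ENSG00000110958, chromosome 12, 56663341 to 56688408, minus strand) encodes p23, a co-chaperone of HSP90 that was also described as a cytosolic prostaglandin E synthase. It was the most abundant of the genes on the per-length FPKM scale, with 127 and 135 FPKM in REEP6, against 99.0 and 104 FPKM in NC libraries. Here the REEP6 libraries were the higher ones. PTGES3 had a log2 fold change of 0.40 ± 0.0826 (SE, edgeR adjusted p 0.00819). The call ended with equal FPKM sums (log2 fold change 0.27, edgeR adjusted p 0.0522, with 5.05% of all genes higher) and after quantile normalization with limma (0.27, limma adjusted p 0.101, with 4.92% of all genes higher). PTGES3 has processed pseudogenes that can take up reads, and the 4 numbered copies other than PTGES3P1 had at most 2 counts in any library. PTGES3P1 had 6 and 13 counts in REEP6, against 27 and 30 in NC libraries, few beside the 5730 and 6089 in REEP6 and 4324 and 5351 in NC libraries of PTGES3 itself.

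The makeup of the prostaglandin E synthase transcripts also had no overlap between the groups. PTGES was 21.7% and 23.1% of the summed FPKM of the 3 synthase genes in REEP6, against 35.3% and 38.4% in NC libraries. The ratio of PTGES to PTGES2 was 1.19 and 1.33 in REEP6, against 1.70 and 2.03 in NC libraries. PTGS2 relative to PTGES was 0.147 and 0.152 in REEP6, against 0.233 and 0.238 in NC libraries, so PTGS2 was lower by more than PTGES in both REEP6 libraries. These ratios compare levels per length within a library and were not tested.

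**Figure D2:**
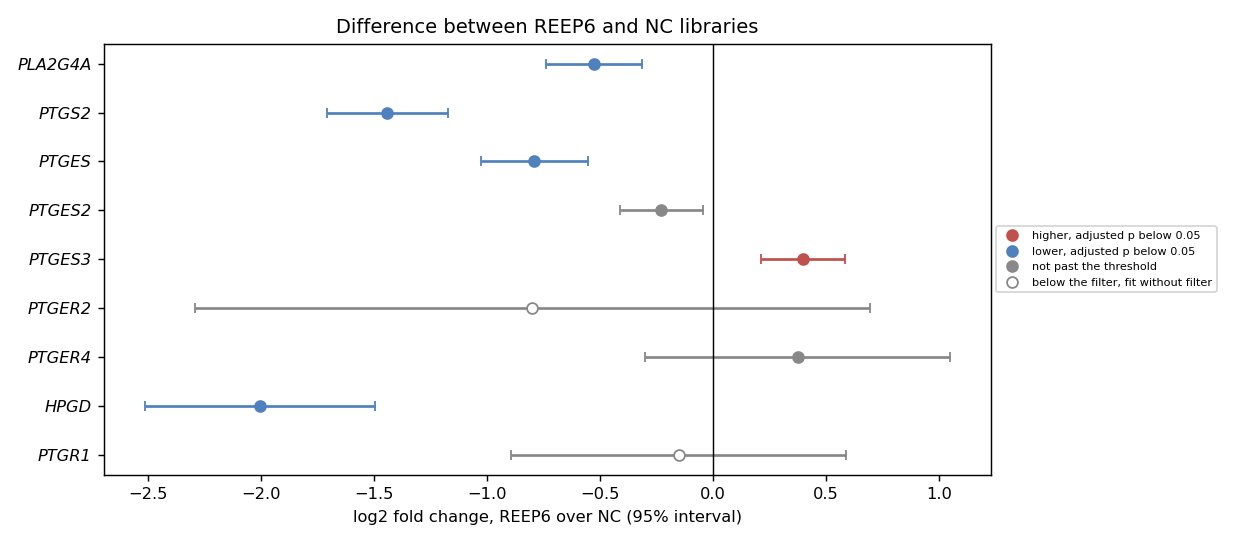
Log2 fold change of REEP6 over NC with its 95% interval for 9 of the 10 genes, ordered from release of arachidonic acid to inactivation. Filled points are the 7 genes tested with edgeR, blue for lower, red for higher and grey for not past the threshold, and open points are PTGER2 and PTGR1 from the fit without a filter. The interval of PTGS2 runs from -1.71 to -1.17, below that of PTGES (-1.03 to -0.55), and those of PTGER2, PTGER4 and PTGR1 cross 0.

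Transcripts of both receptors were scarce, PTGER4 at the 5.5th percentile of tested genes by its mean NC level in FPKM, against 97.8 for PTGES3, 97.2 for PTGES, 83.7 for PTGS2 and 31.1 for HPGD. PTGER4 (ENSG00000171522, chromosome 5, 40679498 to 40693735, plus strand), the EP4 receptor gene, had 1.41 and 1.48 FPKM in REEP6, against 0.785 and 1.46 FPKM in NC libraries. NC replicate 2 lay between the REEP6 libraries, and NC replicate 1 was lower. The log2 fold change was 0.38 with a 95% interval from -0.30 to 1.05 (edgeR adjusted p 0.393). The control libraries decided the value, which was 0.01 without NC replicate 1 (edgeR adjusted p 0.987) and 0.93 without NC replicate 2 (edgeR adjusted p 0.0491, with 11.4% of all genes higher). PTGER2 (ENSG00000125384, chromosome 14, 52314305 to 52328606, plus strand), the EP2 receptor gene, had 3 and 8 counts in REEP6, against 10 and 11 in NC libraries. It was below the filter, and without a filter its log2 fold change was -0.80 with a 95% interval from -2.29 to 0.70 (edgeR adjusted p 0.659), so neither a change nor its absence could be shown at this depth. PTGER4 overlaps TTC33 on the other strand, with 0 shared exonic bases in GENCODE release 29.

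HPGD (ENSG00000164120, chromosome 4, 174490177 to 174523154, minus strand) had 46 and 68 counts in REEP6, against 198 and 299 in NC libraries. Its level was 0.629 and 0.925 FPKM in REEP6, against 2.79 and 3.56 FPKM in NC libraries. The higher REEP6 library stayed far below the lower NC library. On the log2 scale HPGD differed by -2.0 ± 0.228 (SE), with a 95% interval from -2.51 to -1.49 and an edgeR adjusted p of 0.00069. In this edgeR fit it had the largest difference of the 7 genes tested, and it ranked number 25 by size among the genes that fell. Since only the NC libraries took HPGD past the filter, its direction was fixed by that filter. Its size and rank are not independent of the filter either, so they are only described. On the log2(FPKM + 1) scale, which understates changes of low genes, limma gave -1.23 (limma adjusted p 0.023, with 9.73% of all genes lower), and with a pseudocount of 5 it gave -0.50 (limma adjusted p 0.023, 9.94% lower).

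PTGR1 (ENSG00000106853, chromosome 9, 111549722 to 111599893, minus strand), the reductase for the next step of inactivation, had 0.603 and 0.420 FPKM in REEP6, against 0.538 and 0.630 FPKM in NC libraries. The groups overlapped. It was below the filter, and without one the log2 fold change was -0.15 with a 95% interval from -0.89 to 0.59 (edgeR adjusted p 0.863). PTGS2 relative to HPGD was 10.8 and 8.58 in REEP6, against 6.65 and 6.24 in NC libraries. This ratio of levels was not tested. HPGD was above the filter through the NC libraries only, so the ratio does not rank inactivation against synthesis. The order of the 2 genes also depended on the scale. With limma the log2 fold change was -1.91 for HPGD and -1.45 for PTGS2 at a pseudocount of 0.1. At a pseudocount of 1 it was -1.23 for HPGD and -1.35 for PTGS2.

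**Figure D3:**
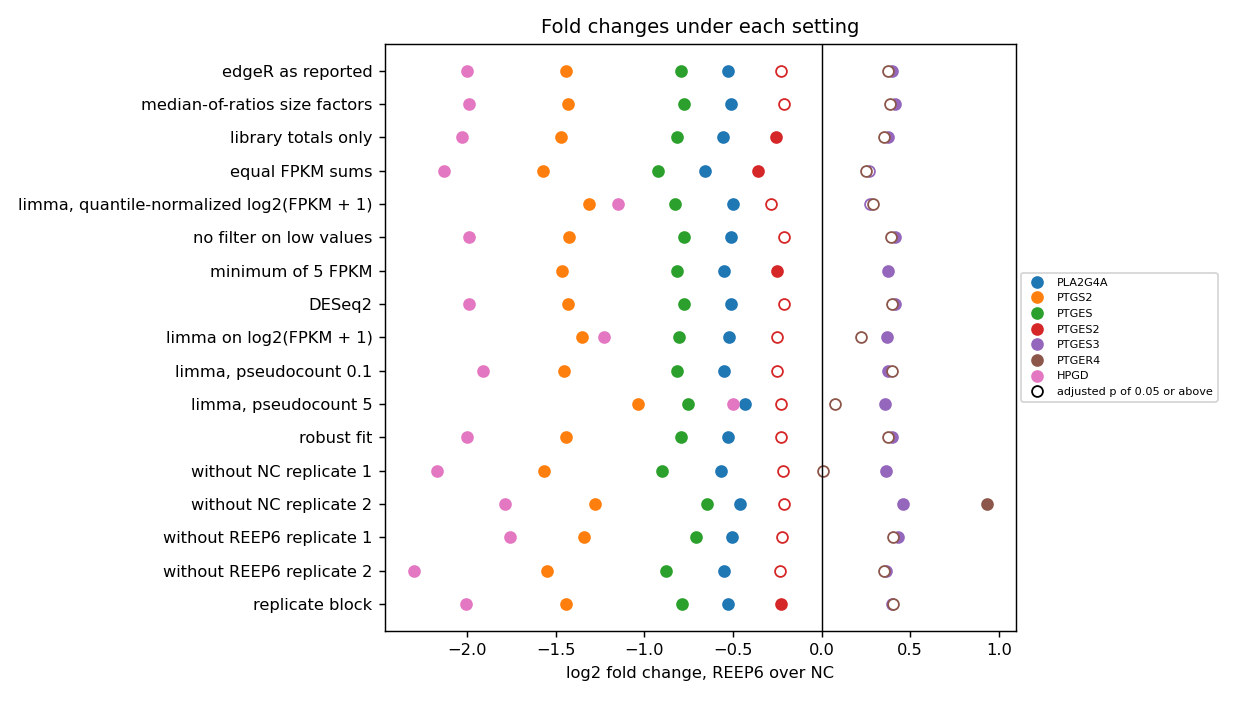
Log2 fold change of the 7 tested prostaglandin genes under the fit as reported and 16 alternative settings. Filled points have an adjusted p below 0.05. In the fits that left out a library a group had no replicate, so filling there does not rest on the spread of both groups. PTGS2, PTGES, PLA2G4A and HPGD stay below 0 with filled points wherever they were fitted (HPGD was below the minimum of 5 FPKM), while PTGER4 runs from 0.01 to 0.93.

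Around these genes, 9 lists of related genes were counted. Apart from the 10 they held 127 genes with a row, of which 83 were tested. Of the 83, 16 rose, 20 fell and 47 were not called, and their median log2 fold change was 0.03, against -0.01 over all genes tested. Over all genes tested 10.9% rose and 14.2% fell, the shares to set beside the counts of each list below. The counts include AREG and CBR3, each above the filter through 1 group only. The lists were chosen with earlier results of these data known, so their counts are no test. Of 8 other genes of arachidonate release tested, 7 were not called and 1 fell, ANXA1, with 178 and 175 FPKM in REEP6, against 234 and 240 FPKM in NC libraries (log2 fold change -0.40, edgeR adjusted p 0.0077), whose product annexin A1 is known to restrain phospholipase A2, and the list's median was -0.15. Among the secreted phospholipase genes PLA2G2A and PLA2G10 had 0 counts in each library and PLA2G5 at most 1, while PLA2G12A was tested and not called (log2 fold change -0.22). Of the other group IV genes, PLA2G4C had 3 to 13 counts and PLA2G4B, PLA2G4D, PLA2G4E and PLA2G4F at most 2, so PLA2G4A held nearly all group IV transcript in these cells on the FPKM scale.

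Genes that activate arachidonic acid or build it into membranes moved both ways, with 4 higher, 3 lower and 7 not called of 14 tested (median log2 fold change 0.15). ACSL4, the acyl-CoA synthetase with a preference for arachidonic acid, had 16.3 and 18.0 FPKM in REEP6, against 31.4 and 32.5 FPKM in NC libraries (log2 fold change -0.87, edgeR adjusted p 0.00041). ACSL5 fell by 1.37 on the log2 scale and MBOAT2, an acyltransferase of lysophospholipids, by 0.38. FADS2 and FADS1, the desaturases that make arachidonic acid from linoleic acid, rose by 0.94 and 0.44. The lysophospholipid acyltransferase genes LPCAT1 and LPCAT3 rose by 0.77 and 0.40. The calls of LPCAT3 and MBOAT2 each ended in 7 of 17 alternative settings. For LPCAT3 these include leaving out REEP6 replicate 1, and for MBOAT2 leaving out REEP6 replicate 2, where its log2 fold change was -0.25.

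Among the other prostanoid synthases 1 of 6 tested rose and 1 fell (median log2 fold change 0.03). AKR1C3, which can make prostaglandin F2 alpha, had 2.00 and 2.59 FPKM in REEP6, against 10.7 and 11.1 FPKM in NC libraries (log2 fold change -2.22 ± 0.143 SE, edgeR adjusted p 4.17e-05). It is a close paralog of AKR1C1 and AKR1C2, so reads could be shared and the value is uncertain. CBR3, a carbonyl reductase, rose by 1.54 on the log2 scale (edgeR adjusted p 0.0395) and is the 1 higher gene of this list. It was above the filter through the REEP6 libraries only, which fixed its direction, and the call ended without any one of the 4 libraries. AKR1B1, an aldose reductase with prostaglandin F synthase activity, was at 55.7 and 54.7 FPKM in REEP6 and 57.2 and 59.9 FPKM in NC libraries (edgeR adjusted p 0.654). The prostaglandin D synthase gene PTGDS had no count in any library, and HPGDS and the prostacyclin synthase gene PTGIS had at most 2.

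The other prostanoid receptors were low or undetected. PTGER3 and PTGDR had no count, and PTGFR, PTGIR and PTGDR2 had at most 4 in any library. Of the 3 tested, PTGER1 and TBXA2R were not called, and PTGFRN, which encodes an inhibitor of the prostaglandin F receptor and is no receptor itself, fell by 0.32 (edgeR adjusted p 0.0496), a call that ended in 13 of 17 alternative settings, each of the 4 left-out libraries among them. The list's median log2 fold change was 0.23.

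Of 7 tested genes for transport and inactivation, HPGD among them, 3 fell and 1 rose (median log2 fold change -0.03). HPGD is 1 of the 3 lower genes, but it was above the filter through the NC libraries only, which fixed its direction. AKR1C1, a hydroxysteroid dehydrogenase and paralog of AKR1C3, fell by 2.71. Reads could be shared among these paralogs, so this value is uncertain too. ABCC4, an exporter of prostaglandin E2, had 23.8 and 25.9 FPKM in REEP6, against 31.3 and 34.0 FPKM in NC libraries (log2 fold change -0.37, edgeR adjusted p 0.0153), a call that ended in 3 of 17 settings, including without NC replicate 2 and without REEP6 replicate 1. SLCO4A1, an organic anion transporter that can carry prostaglandins, rose by 0.59. The prostaglandin transporter SLCO2A1 was at 1.69 and 1.45 FPKM in REEP6 and 1.18 and 1.38 FPKM in NC libraries and was not called (edgeR adjusted p 0.191). ZADH2, another prostaglandin reductase, had a log2 fold change of -0.03.

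The neighbouring lipoxygenase branch had 1 higher and 2 lower of 6 tested (median log2 fold change -0.05). ALOX12, the arachidonate 12-lipoxygenase gene, fell by 0.66 and LTB4R, a leukotriene B4 receptor gene, by 0.61, while MGST2, a leukotriene C4 synthase of the microsomal glutathione transferase family to which PTGES also belongs, rose by 0.40. The call of MGST2 was lost in 12 of 17 alternatives, among which each left out library except NC replicate 2. That of ALOX12 was lost in 5 of 16, including without NC replicate 2 and without REEP6 replicate 2. ALOX5, the enzyme that starts leukotriene synthesis, had at most 3 counts in any library.

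**Figure D4:**
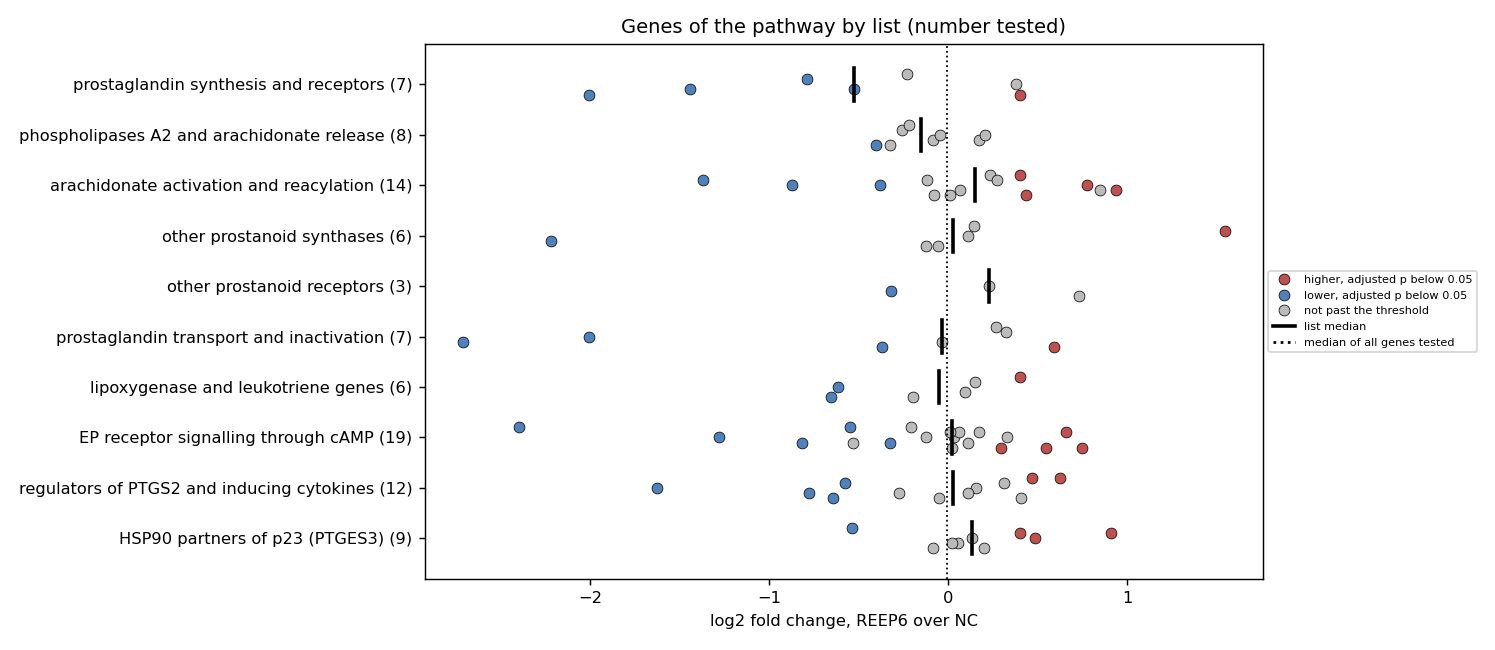
Log2 fold change of REEP6 over NC for each tested gene, by list, with the number tested in brackets (genes can stand in 2 lists). Red is higher, blue lower and grey not past the threshold, short lines are list medians and the dotted line is the median of all genes tested. List medians other than that of the 10 prostaglandin genes (-0.53) lie between -0.15 and 0.23. The genes and lists were chosen with earlier results of these data known, and the direction of HPGD was fixed by the filter, so this contrast is no test.

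Downstream of EP2 and EP4, genes of cyclic AMP signalling moved in both directions, with 4 of 19 tested higher and 5 lower (median log2 fold change 0.02). The number higher was 2 in 8 of 17 alternatives, including without REEP6 replicate 2. AREG, an EGF family ligand that prostaglandin E2 is known to induce, had 0.917 and 0.684 FPKM in REEP6, against 4.06 and 4.55 FPKM in NC libraries (log2 fold change -2.39 ± 0.295 SE). AREG is 1 of the 5 lower genes, but it was above the filter through the NC libraries only, which fixed its direction. PDE3B, a cyclic AMP phosphodiesterase, fell by 1.28. PRKACB, a catalytic subunit of protein kinase A, fell by 0.81 and the phosphodiesterase gene PDE4D by 0.55. The other catalytic subunit gene, PRKACA, rose by 0.54 and the adenylyl cyclase gene ADCY3 by 0.75. The known cyclic AMP target genes NR4A2, FOS and CREM were not called. NR4A2 had a log2 fold change of -0.53 (edgeR adjusted p 0.0625), FOS of -0.21 and CREM of 0.03.

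Of 12 tested genes that induce or regulate PTGS2, 4 fell and 2 rose (median log2 fold change 0.03). The number higher ran from 1 to 5 over the alternatives, at 1 without NC replicate 1, 5 without NC replicate 2 and 4 without REEP6 replicate 1. The chemokine gene CXCL8, which shares NF-kB control with PTGS2, had 1.76 and 1.95 FPKM in REEP6, against 4.65 and 7.00 FPKM in NC libraries, and fell by 1.63 on the log2 scale. HIF1A, a hypoxia factor, fell by 0.64, and NFKBIA, the NF-kB inhibitor and target, by 0.58. JUN, an AP-1 subunit, fell by 0.78, and its call ended in 6 of 16 settings, including without NC replicate 1. ELAVL1, whose product HuR binds and stabilizes PTGS2 mRNA, rose by 0.62. RELA, the NF-kB subunit p65, rose by 0.46. Its call ended in 7 of 17 settings, and without NC replicate 1 its log2 fold change was 0.30. The cytokine genes that classically induce PTGS2 were nearly silent: IL1A, IL6 and TNF had at most 8 counts in any library, and IL1B had 2 and 6 in REEP6, against 18 and 5 in NC libraries. ZFP36, which encodes tristetraprolin, a protein that destabilizes PTGS2 mRNA, had 3.31 and 5.35 FPKM in REEP6 and 2.98 and 6.08 FPKM in NC libraries (edgeR adjusted p 0.926).

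Among the HSP90 partners of p23, the product of PTGES3, 3 of 9 tested rose and 1 fell (median log2 fold change 0.13). The immunophilin gene FKBP4 had 30.7 and 24.4 FPKM in REEP6, against 16.7 and 13.2 FPKM in NC libraries, and rose by 0.91. STIP1, the HSP70 to HSP90 adaptor, rose by 0.40 and the HSP40 gene DNAJB1 by 0.49. HSP90AA1, the inducible HSP90, fell by 0.54, with 257 FPKM in each REEP6 library, against 392 and 370 FPKM in NC libraries, while HSP90AB1 was not called (-0.09). With equal FPKM sums, after quantile normalization or at an adjusted p of 0.01, 1 member of this list was higher, and the calls of STIP1 and DNAJB1 ended. DNAJB1 also lost its call with limma at each pseudocount (0.1, 1 and 5). STIP1 also lost its call without REEP6 replicate 1.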

How the data were processed

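A set of 4 libraries of polyadenylated RNA from the cell line labelled SCC-15 were analysed, grouped by the sample titles into 2 REEP6 and 2 NC libraries. The authors deposited 1 table per library with raw counts and FPKM for 51103 Ensembl genes. Per the submitters' processing notes, HISAT2, HTSeq 0.13.5 and GRCh38 were used, with roles unstated. Annotation, strand setting and treatment of shared reads were not given in the sources used here. The deposited FPKM values were the deposited counts scaled by library total and 1 length per gene, for 100% of 29161 genes within a relative tolerance of 0.0001. All 51103 identifiers matched GENCODE release 29.

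The 13077 genes reaching 1 FPKM in 2 or more libraries were tested on their counts with edgeR 4.0.16 under R 4.3.3 (TMM scaling, quasi-likelihood, 1 group term, 2 residual degrees of freedom, two-sided, Benjamini-Hochberg over all genes tested, threshold 0.05). The common biological coefficient of variation was 9.35%. SE is the log2 fold change over the square root of F, and FPKM is given as mean ± SD or per library. The fit was tested on simulated counts with known changes. It recovered 57% of 100 1.5-fold, 84% of 50 2-fold and 94% of 50 3-fold changes among 13077 genes, with 3 false calls. So a gene that was not called can still differ. Far fewer genes were changed there than were called in the data, and genes of equal level were given equal spread. The rates therefore need not hold for these data. With 2 libraries against 2, an exact permutation test has a smallest p of 0.333, so none was used. Alternatives used DESeq2 1.42.0, limma 3.58.1, other scalings, filters and pseudocounts, left out each library or added the replicate number as a block. All 10 prostaglandin genes are named, with up to 4 called genes of each related list by smallest p, or all called genes where 5 or fewer passed. Other genes were named after their values were seen. The genes and lists were chosen with earlier results of these data known. Promoter windows are from RefSeq tables.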

Additional observations from a re-analysis of the deposited data

How the results depend on the processing

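There were 17 alternatives, among them the fits that left out a library. The falls of PTGS2, PTGES and PLA2G4A passed the threshold in each alternative that used all 4 libraries. So did that of HPGD wherever it could be fitted, since HPGD and PTGER4 were not above a minimum of 5 FPKM. HPGD was above the main filter through the NC libraries only, which fixed its direction. REEP6 also passed wherever all 4 libraries were used. Fits that left out a library had no replicate in a group. There the log2 fold change ran from -1.57 to -1.28 for PTGS2 and -0.90 to -0.65 for PTGES. It ran from -0.57 to -0.46 for PLA2G4A, -2.30 to -1.76 for HPGD and 0.73 to 0.94 for REEP6. The number of prostaglandin genes that fell was 4 or, with PTGES2 added, 5. With a minimum of 5 FPKM it was also 4, but with PTGES2 in place of HPGD, which was not tested there. The number that rose (1, PTGES3) was 0 with equal FPKM sums and 0 after quantile normalization, and between 1 and 2 when single libraries were left out, where PTGER4 was added without NC replicate 2. With equal FPKM sums the median over all genes moved from -0.01 to -0.14 (log2 fold change), so PTGES3 was then 0.27 and PTGES2 -0.36 on a scale moved by that much, and the split of all calls became 661 higher and 2824 lower, against 1422 higher and 1853 lower with TMM.

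Of the other pathway genes 16 rose, and 8 with equal FPKM sums, 9 after quantile normalization, 10 with limma at each pseudocount (0.1, 1 and 5) and 8 at an adjusted p of 0.01, between 13 and 19 without single libraries. Over all genes the number higher was 643 and the number lower 903 after quantile normalization, 634 higher with limma on log2(FPKM + 1), 597 higher and 1233 lower with a pseudocount of 0.1, 642 higher with a pseudocount of 5, 936 higher with a minimum of 5 FPKM, and 495 higher and 897 lower at an adjusted p of 0.01. Without single libraries between 940 and 1495 were higher and between 1272 and 1718 lower, the lowest of each without REEP6 replicate 1. A higher filter and a lower p threshold leave fewer genes to call. For the rest the cause was not tested.

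The titles give both groups replicate numbers 1 and 2, but nothing in the labels says that equal numbers share a culture or day. Deviations of equally numbered libraries correlated at 0.216 across genes. With the replicate number as a block, 2960 genes were higher and 3062 lower, PTGES2 passed (edgeR adjusted p 0.00108), and the other prostaglandin genes kept their calls. The low counts of PTGS1, PTGER2 and PTGR1 limit what depth can show of them.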
